A study of Homo sapiens with 10 samples.

Results

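The Sprouty and SPRED genes encode feedback inhibitors of growth factor signalling, and their transcripts were followed here in RD, a human cell line derived from an embryonal rhabdomyosarcoma. The genes were chosen by symbol as the complete human family, 4 Sprouty genes (SPRY1, SPRY2, SPRY3 and SPRY4) and 3 SPRED genes (SPRED1, SPRED2 and SPRED3), which makes 7 of the 23228 genes listed in the count tables. All 7 were listed, and 6 passed the filter on low counts and were tested among 14761 genes. SPRY3 had 0 counts in every library and was not tested.

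Cells were transfected for 48 h at 10 nM with a nonspecific siRNA, with NRAS siRNA 1 or with NRAS siRNA 2, which target the transcript of the small GTPase NRAS. Other cells received 300 nM SCH772984, an inhibitor of the kinases ERK1 and ERK2, or its vehicle DMSO, for 24 h. Each of these 5 groups held 2 libraries. Whether the replicates of a group were separate cultures is not stated in the labels. The p-values here therefore reflect library-to-library spread that may be only technical. All libraries came from a single cell line, given as RD, a line known to carry an activating NRAS mutation. The NRAS genotype of the cells used here was not tested. The sources used here do not say whether the DMSO and SCH772984 cells were exposed to transfection reagent.

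Growth factor receptors switch on RAS, which activates a cascade of kinases that ends in ERK. ERK signalling induces genes whose products damp the same pathway, among them the Sprouty genes, so transcripts of these genes are commonly read as a gauge of pathway output. Sprouty and SPRED proteins share a cysteine-rich domain at the carboxyl end that brings them to membranes. Sprouty proteins bind adaptors and enzymes such as GRB2 and CBL and interfere with signalling upstream of ERK. SPRED proteins carry a different amino-terminal domain, through which they bring neurofibromin, the product of NF1 and an inactivator of RAS, to the plasma membrane.

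Libraries held 23224063 to 30768970 counts assigned to genes, so that 3 counts, the limit that a count of 0 allows, corresponded to 0.0952 to 0.132 CPM (counts scaled to library size, with TMM factors between libraries). NRAS transcripts fell by 2.27 on the log2 scale over both siRNAs, and stood at 276 ± 9.37 CPM with DMSO and 257 ± 30.8 CPM with SCH772984 (SD, n = 2 each). Of the replicate pairs, the nonspecific siRNA replicates differed most, with a chi-square of 25.5 times its degrees of freedom against 13.2 at the lowest. This pair matters here, since SPRY1 and SPRY2 differed between its libraries, and the calls of SPRY1, SPRY2 and SPRED3, which do not hold without its first library, are given with and without it. The muscle lineage markers DES, PAX3 and FGFR4 stood at 22.1, 12.9 and 21.8 CPM in the DMSO group. MYOD1 had 0 to 5 counts per library, MYOG 0 to 3 and MYF5 0, so the master regulators of muscle that usually mark rhabdomyosarcoma were at or near 0. MYOD1, MYOG and MYF5 thus do not bear out the stated rhabdomyosarcoma line, although DES, PAX3 and FGFR4 were detected. The identity of the cells was not tested. Of 12 muscle markers, 7 stayed under 1 CPM everywhere, and their summed level was 60.2 to 64 CPM with DMSO, 68.6 to 75.3 CPM with SCH772984, 54.9 to 64.2 CPM with the nonspecific siRNA and 54.6 to 57.3 CPM with the NRAS siRNAs. Of 10 markers of other cell types, 8 stayed under 1 CPM everywhere, and the summed level was 277 to 291 CPM with DMSO, 426 to 473 CPM with SCH772984, 243 to 280 CPM with the nonspecific siRNA and 221 to 261 CPM with the NRAS siRNAs, nearly all of it TUBB3. Single muscle markers moved in opposite directions within their sum. Of 6 tested muscle markers, 1 was called higher and 1 lower with SCH772984, and 0 higher and 1 lower over both siRNAs. CDH15 stood at 0.448 CPM with DMSO and 5.29 CPM with SCH772984. CHRNA1 stood at 0.64 CPM with DMSO and 0.0531 CPM with SCH772984, the latter on 3 counts. The part of these differences in the results below was not tested. In bulk RNA, fewer cells of a kind and less RNA per cell cannot be told apart.

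A promoter each of SPRY4 and SPRY2 is shown because these genes gave the greatest falls of the family with SCH772984. SPRY2 has further annotated starts, which are not shown. The SPRY4 stretch lies inside the span of the gene in GENCODE v29, chr5:142310427-142326455. A start further upstream is thus annotated there for SPRY4, and it is not shown either. Each sequence is the 200 bases before an annotated RefSeq transcript start (GRCh38.p14), read 5′ to 3′ on the gene's own strand, the minus strand in both cases. SPRY4 lies at chr5:142324248-142324447 and SPRY2 at chr13:80341127-80341326. Capitals mark matches to TGACG, the core of the site bound by CREB and ATF factors, and to CCGGAA, a core bound by ETS factors such as the ERK substrate ELK1.
SPRY4: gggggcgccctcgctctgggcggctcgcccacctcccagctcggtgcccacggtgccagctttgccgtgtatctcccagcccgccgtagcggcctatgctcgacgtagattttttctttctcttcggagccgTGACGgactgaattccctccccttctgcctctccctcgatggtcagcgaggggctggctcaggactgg
SPRY2: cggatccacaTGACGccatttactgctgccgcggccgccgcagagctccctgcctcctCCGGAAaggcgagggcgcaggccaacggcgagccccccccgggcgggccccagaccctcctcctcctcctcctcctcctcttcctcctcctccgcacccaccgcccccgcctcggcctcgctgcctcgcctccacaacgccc

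The SPRY4 stretch held 65.5% G and C bases and the SPRY2 stretch 74%. TGACG began at position -68 of SPRY4 and at position -190 of SPRY2, and CCGGAA at position -142 of SPRY2, where -1 is the base before the start. Matches elsewhere in the family are shown as 30-base stretches, again on the gene's strand with the match in capitals, to set the ETS match of SPRY1 and the AP-1 matches of the SPRED genes beside these. AP-1 is the dimer of FOS and JUN factors, and the motif searched was TGANTCA.
SPRY1 (ETS, chr4:123398307-123398336, plus strand): tgccctccgcagCCGGAAgggggccgcggg
SPRED2 (AP-1, chr2:65366767-65366796, minus strand): ctaaccctcggaTGACTCAtccggtacaat
SPRED2 (AP-1, chr2:65366729-65366758, minus strand): tttgtcaaggagacTGAATCAtatatgggg
SPRED3 (AP-1, chr19:38389719-38389748, plus strand): cccgttgctgggTGACTCAgtgagctttgc

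RefSeq promoter windows, each running from 250 bases before to 50 bases after a start, numbered 11 for the 6 tested genes. Both strands were searched. CCGGAA was found in 2 of the 11 windows (1 each of SPRY1 and SPRY2), against 17.2% of all 35116 windows in the table. TGANTCA was found in 2 (1 each of SPRED2 and SPRED3), against 7.71% of all windows, and TGACG in 3 (1 each of SPRY4, SPRY2 and SPRED2), against 24.6%. A match to TGACG cannot be a match to TGANTCA at the same place. The CArG box, the site of serum response factor, was found in 0 of the 11 windows and in 1.29% of all windows. The single SPRED1 window held none of the 4 motifs. None of the 4 was found either in windows 2 and 3 of SPRY2, window 1 of SPRY1 and window 2 of SPRED3. A match is a description of the letters and not evidence of binding, and binding was not measured.

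Levels between genes were compared per length, as CPM per kb of merged exons (GENCODE v29, GRCh38), because the annotation used for the deposited counts is not given in the sources used here. In DMSO libraries SPRY2 had the highest level of the family, with 105 and 83.8 CPM per kb. SPRED2 followed with 63.9 and 66.9 CPM per kb, and SPRY4 with 65.5 and 60.3 CPM per kb. The libraries of these last 2 genes overlapped, so their order was not resolved. SPRY1 lay lower, at 21.8 and 18.1 CPM per kb, above SPRED1 at 13.3 and 11.4 CPM per kb. SPRED3 was far below the rest, at 0.507 and 0.459 CPM per kb. Thus 5 members of the family were above 10 CPM per kb, with SPRY2, SPRY4 and SPRED2 the highest per length.

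**Figure D1:**
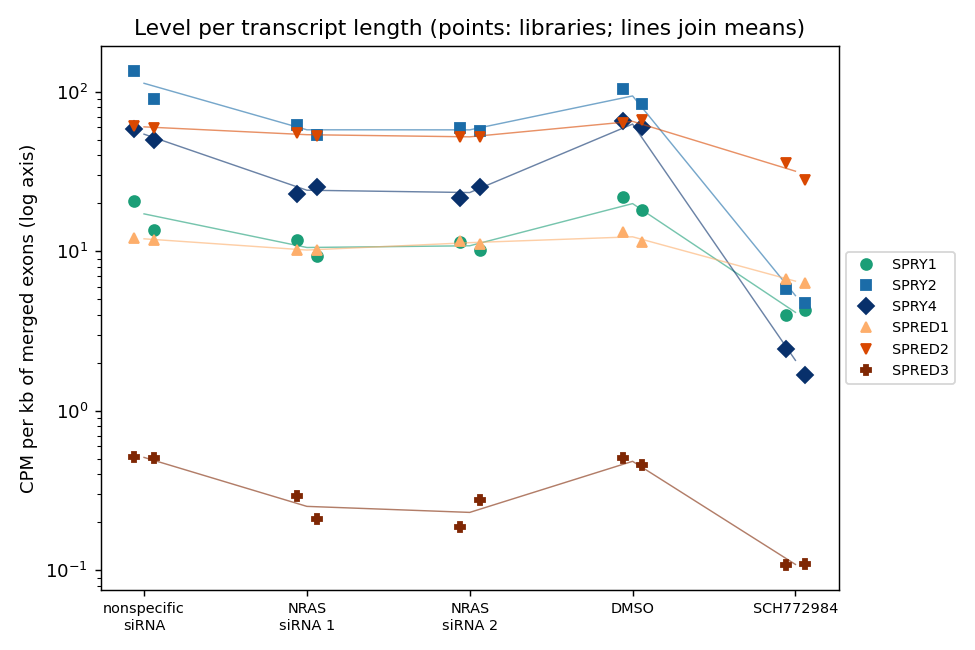
Level of the 6 detected genes in CPM per kb of merged exons (log axis) in the 5 groups; points are the 2 libraries of a group and lines join group means to guide the eye. SPRY2 and SPRY4 lie far above SPRED1 with DMSO and below it with SCH772984.

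The ranking of the family changed with SCH772984. SPRED2 became the highest at 31.8 ± 5.6 CPM per kb, and SPRED1 came second at 6.51 ± 0.277 CPM per kb (SD, n = 2 each). SPRY2 stood at 5.28 ± 0.801, SPRY1 at 4.15 ± 0.202 and SPRY4 at 2.08 ± 0.544 CPM per kb (SD, n = 2 each). The libraries of no neighbouring pair in this order overlapped. Summed over genes, Sprouty transcripts made up 69.3 ± 2.79% of the family's level per length with DMSO and 23.1 ± 0.959% with SCH772984 (SD, n = 2 each). Their share was 71.3 ± 4.53% with the nonspecific siRNA, 59 ± 1.07% with NRAS siRNA 1 and 59 ± 0.115% with NRAS siRNA 2 (SD, n = 2 each). The summed SPRED level was 78.2 ± 0.752 CPM per kb with DMSO and 38.4 ± 5.87 with SCH772984, against 177 ± 21.6 and 11.5 ± 1.14 for the summed Sprouty level (SD, n = 2 each). The Sprouty sums rest on SPRY1, SPRY2 and SPRY4, because SPRY3 had 0 counts, which cannot be read as absence of its transcript. These shares are given as values, with no test.

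The first comparison asked which family members depended on NRAS. Averaged over both siRNAs, 4 of the 6 tested genes fell (SPRY4, SPRED3, SPRY2 and SPRY1) by the quasi-likelihood test of edgeR, adjusted over all tested genes by the Benjamini-Hochberg method at 0.05, and SPRED1 and SPRED2 did not pass. Over all tested genes, 4.99% were called lower in this comparison. The median log2 fold change of the 6 genes was -0.83, against -0.01 over all tested genes. Each of the 6 genes was lower in all 4 NRAS siRNA libraries than in both nonspecific siRNA libraries, a pattern shown by 19.3% of all tested genes. Both siRNA groups were set against the same nonspecific siRNA libraries.

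SPRY4, whose protein restrains RAS and ERK signalling, had the smallest adjusted p of the family. It stood at 292 and 249 CPM in the nonspecific siRNA libraries, at 114 and 126 CPM with siRNA 1 and at 107 and 126 CPM with siRNA 2. The NRAS siRNA libraries all lay below the control libraries without overlap. The transcript remained at 44.5% of the control mean with siRNA 1 and at 43% with siRNA 2. The log2 fold change over both siRNAs was -1.19 (SE 0.13, 95% interval -1.48 to -0.91, edgeR adjusted p = 0.00158). It stayed past the threshold in each of the 16 alternative analyses of the mean response, with edgeR or DESeq2 adjusted p of 5.22e-14 to 0.0226. The gene lies at chr5:142310427-142326455 on the minus strand (GRCh38) and overlaps the antisense gene SPRY4-AS1. Whether counting used strand is not given in the sources used here, and reads of the pair cannot be told apart.

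SPRY2, which binds the ubiquitin ligase CBL and the adaptor GRB2, stood at 414 and 275 CPM with the nonspecific siRNA. It measured 189 and 163 CPM with siRNA 1 and 180 and 172 CPM with siRNA 2. All 4 NRAS siRNA libraries were low and close together, whereas the control libraries lay far apart. The log2 fold change over both siRNAs was -0.97 (SE 0.16, 95% interval -1.32 to -0.62, edgeR adjusted p = 0.00869). Without the first nonspecific siRNA library it was -0.63 and no longer past the threshold (edgeR adjusted p = 0.0776).

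SPRY1, a regulator of muscle stem cell quiescence in mice, showed the same spread in the control. Its libraries stood at 63 and 41.2 CPM with the nonspecific siRNA, at 35.5 and 28.3 CPM with siRNA 1 and at 34.8 and 30.7 CPM with siRNA 2. The groups did not overlap, but the lower control library was near the highest NRAS siRNA library. The log2 fold change over both siRNAs was -0.69 (SE 0.16, 95% interval -1.05 to -0.32, edgeR adjusted p = 0.0345). Without the first nonspecific siRNA library it became -0.33 (edgeR adjusted p = 0.257), and it did not pass in 8 of the 16 alternatives. Besides that one these were the fit on only the groups compared (-0.67, edgeR adjusted p = 0.086) and those without the second siRNA 1 library (-0.61), the first or second siRNA 2 library (-0.73 and -0.64), the second DMSO library (-0.67) or either SCH772984 library (-0.69), with edgeR adjusted p of 0.0511 to 0.0755.

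SPRED3, the least abundant detected member, rests on few reads. It had 66 and 70 counts with the nonspecific siRNA, 44 and 31 with siRNA 1 and 31 and 41 with siRNA 2. These correspond to 2.73 and 2.68 CPM in the control, 1.55 and 1.12 CPM with siRNA 1 and 0.983 and 1.46 CPM with siRNA 2. Every NRAS siRNA library lay below the control libraries. The log2 fold change over both siRNAs was -1.08 (SE 0.22, 95% interval -1.57 to -0.6, edgeR adjusted p = 0.0194), and it was -1.05 without the first nonspecific siRNA library (edgeR adjusted p = 0.107). It also missed the threshold without the second nonspecific siRNA library (-1.1, edgeR adjusted p = 0.0769), without the first siRNA 2 library (-0.95, edgeR adjusted p = 0.0649) and in the fit on only the groups compared (-1.06, edgeR adjusted p = 0.0623).

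SPRED1 and SPRED2 did not pass the threshold with the siRNAs. SPRED1, whose loss causes Legius syndrome, a disorder of raised RAS signalling, stood at 94.9 and 91.4 CPM in the control, at 79.1 and 79.3 CPM with siRNA 1 and at 90.2 and 86.2 CPM with siRNA 2. SPRED2 stood at 254 and 249 CPM in the control, at 229 and 220 CPM with siRNA 1 and at 217 and 217 CPM with siRNA 2. Both genes were below the control in every NRAS siRNA library, by margins that were small beside those of SPRY4. The log2 fold change over both siRNAs was -0.16 for SPRED1 (95% interval -0.34 to 0.03, edgeR adjusted p = 0.27). It was -0.19 for SPRED2 (95% interval -0.39 to 0.02, edgeR adjusted p = 0.24). Both intervals include modest falls.

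**Figure D2:**
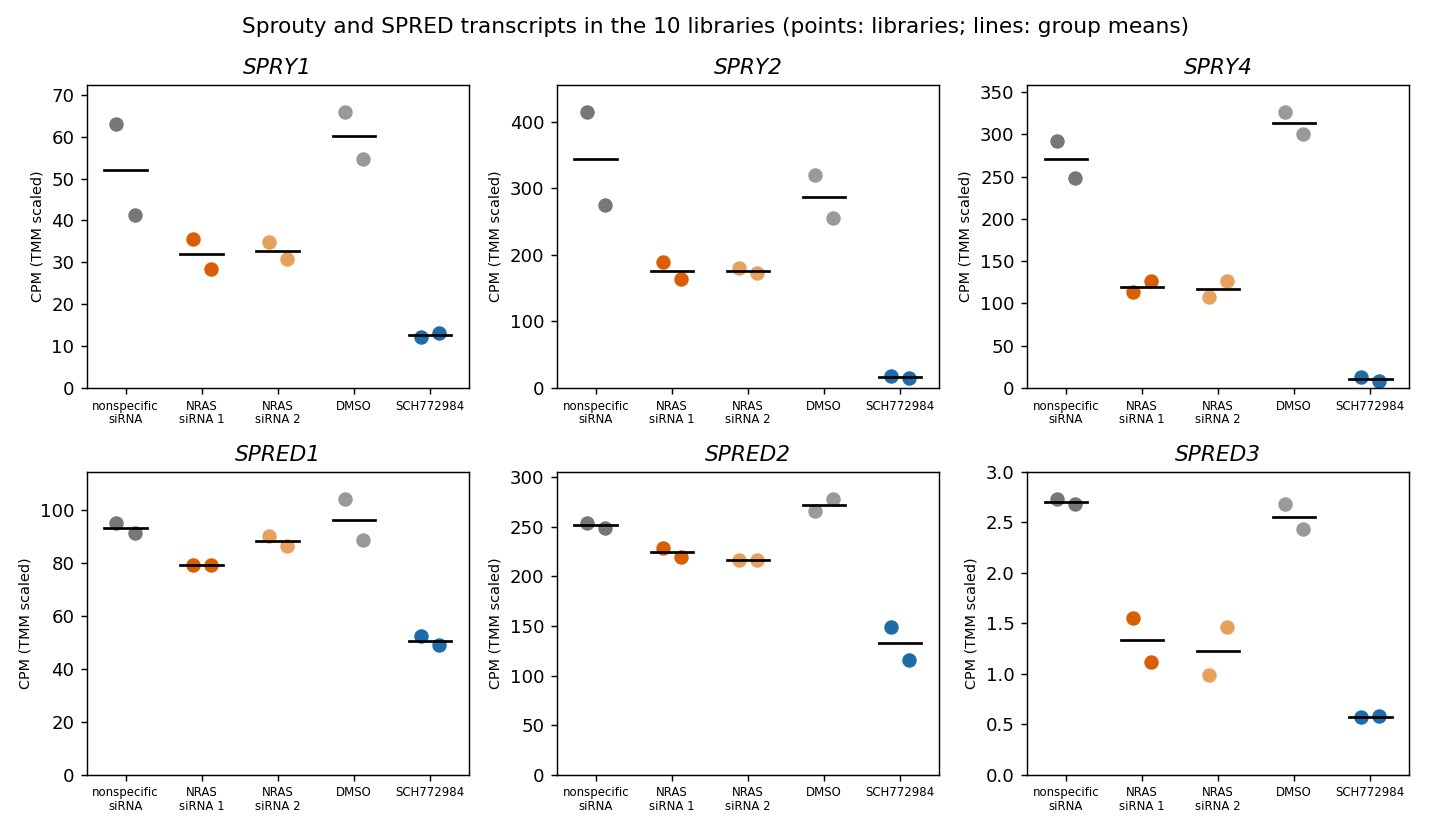
Normalised level (CPM, linear axes from 0, a separate scale per gene) of each detected gene in the 10 libraries; points are libraries and lines are group means. NRAS siRNA libraries lie below the nonspecific siRNA libraries for every gene, and SCH772984 libraries lie lowest of all groups.

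Taken singly, siRNA 1 lowered SPRY4 and SPRY2 past the threshold, 2 of 6 genes, where 1.17% of all tested genes were called lower. For siRNA 2 SPRY4, SPRY2 and SPRED3 passed, 3 of 6 genes, against 3.84% of all tested genes. The 6 genes lay below both control libraries in each siRNA group, as did 25.5% of all tested genes with siRNA 1 and 29.1% with siRNA 2. SPRY1 was at -0.71 with siRNA 1 and at -0.67 with siRNA 2, both short of the threshold (edgeR adjusted p = 0.0947 and 0.0665). It passed for each siRNA with DESeq2, without the filter on low counts, with the replicate number as a block and without the second nonspecific siRNA library (adjusted p of 0.0125 to 0.0358 for siRNA 1 and 0.0114 to 0.0272 for siRNA 2). With DESeq2 3 of the 6 genes passed for siRNA 1 and 4 for siRNA 2. SPRED3 was at -1.02 with siRNA 1 (edgeR adjusted p = 0.0778), where it passed without the filter (adjusted p = 0.0415) and with the block (adjusted p = 0.034), and at -1.15 with siRNA 2 (edgeR adjusted p = 0.0319). The calls per siRNA changed when single libraries were left out. Such fits have fewer residual degrees of freedom, so a lost call alone does not show that 1 library carried the effect. SPRY2 missed the threshold without the first nonspecific siRNA library (-0.62 for siRNA 1, -0.63 for siRNA 2), without either siRNA 1 library (-1.08 and -0.86 for siRNA 1) and without the first siRNA 2 library (-1 for siRNA 2). SPRY4 missed it without the first library of the siRNA in question (-1.1 for each). SPRED3 with siRNA 2 missed it without either nonspecific siRNA library (-1.12 and -1.17), the first siRNA 2 library (-0.89) or the second DMSO library (-1.14). In the fit on only the groups compared, SPRY2 with siRNA 1 (-0.96) and SPRED3 with siRNA 2 (-1.13) missed it as well, which left 1 and 2 genes called.

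Set directly against each other, the siRNAs gave no called difference in the family. Of the 6 genes 0 passed with edgeR, which called 0.427% of all tested genes. At so low a share, 0 of 6 does not set the family apart from other genes. The widest difference was that of SPRED1, -0.16 for siRNA 1 minus siRNA 2 (95% interval -0.37 to 0.06, edgeR adjusted p = 0.937). For SPRY4 the difference was 0.05 (95% interval -0.29 to 0.39) and for SPRY2 it was 0 (95% interval -0.41 to 0.41). With 2 libraries a group, differences within these intervals are not resolved.

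The controls of both experiments were also compared. Between the nonspecific siRNA and DMSO groups 0 of 6 genes passed with edgeR, which called 0.379% of all tested genes. Here too, 0 of 6 does not set the family apart. Log2 differences ran from -0.21 for SPRY4 and SPRY1 to 0.26 for SPRY2 (95% interval for SPRY2 -0.15 to 0.67, edgeR adjusted p = 0.655). Both nonspecific siRNA libraries lay below both DMSO libraries for SPRY4 (249 to 292 against 300 to 326 CPM). The same held for SPRED2 (249 to 254 against 266 to 278 CPM), while the groups overlapped for the other tested genes. How many of all tested genes separated in this way was not counted. The baselines differ in the siRNA or vehicle given and in time of collection, which cannot be told apart here.

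The ERK inhibitor lowered the whole detected family. All 6 tested genes fell with SCH772984, where 14.8% of all tested genes were called lower in edgeR. Their median log2 fold change was -2.2, against 0 over all tested genes. Of the 6 genes 5 fell by at least 1 log2 unit, as did 2.77% of all tested genes. In each gene both SCH772984 libraries lay below both DMSO libraries, which held for 33.9% of all tested genes.

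SPRY4 dropped from 326 and 300 CPM with DMSO to 12.3 and 8.43 CPM with SCH772984. Its mean was 30.3-fold lower, with 3.3% of the DMSO level left. The log2 fold change of -4.92 (SE 0.19, 95% interval -5.34 to -4.51, edgeR adjusted p = 9.63e-07) was the 8th greatest fall among all tested genes. SPRY2 dropped from 320 and 255 CPM to 17.8 and 14.3 CPM, a 17.9-fold lower mean. Its log2 fold change of -4.16 (SE 0.21, 95% interval -4.64 to -3.69, edgeR adjusted p = 2.21e-06) ranked 13th among falls. Neither gene was silent: the lowest SCH772984 library still held 247 counts of SPRY4 and 420 of SPRY2.

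SPRY1 and SPRED3 formed an intermediate pair. SPRY1 fell from 65.8 and 54.6 CPM with DMSO to 12.1 and 13 CPM, with 20.8% of the DMSO mean left. Its log2 fold change was -2.26 (SE 0.21, edgeR adjusted p = 5.67e-05). SPRED3 fell from 2.68 and 2.43 CPM to 0.571 and 0.58 CPM, with 22.5% left, on 15 and 17 counts in the SCH772984 libraries. Its log2 fold change was -2.14 (SE 0.29, 95% interval -2.79 to -1.49, edgeR adjusted p = 0.000695). Although SPRED3 is the scarcest member, its libraries within each of these groups lay close together.

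SPRED1 and SPRED2 had the smallest falls. SPRED1 went from 104 and 88.6 CPM to 52.2 and 49.1 CPM, with 52.7% of the DMSO mean left. SPRED2 went from 266 and 278 CPM to 149 and 116 CPM, with 48.7% left. The log2 fold changes were -0.92 for SPRED1 (SE 0.1, edgeR adjusted p = 0.000171) and -1.04 for SPRED2 (SE 0.11, edgeR adjusted p = 0.000161). They ranked 560th and 449th among falls. Within the family the log2 fold change thus spanned -4.92 to -0.92, and every one of the 6 calls held in all 16 alternative analyses.

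**Figure D3:**
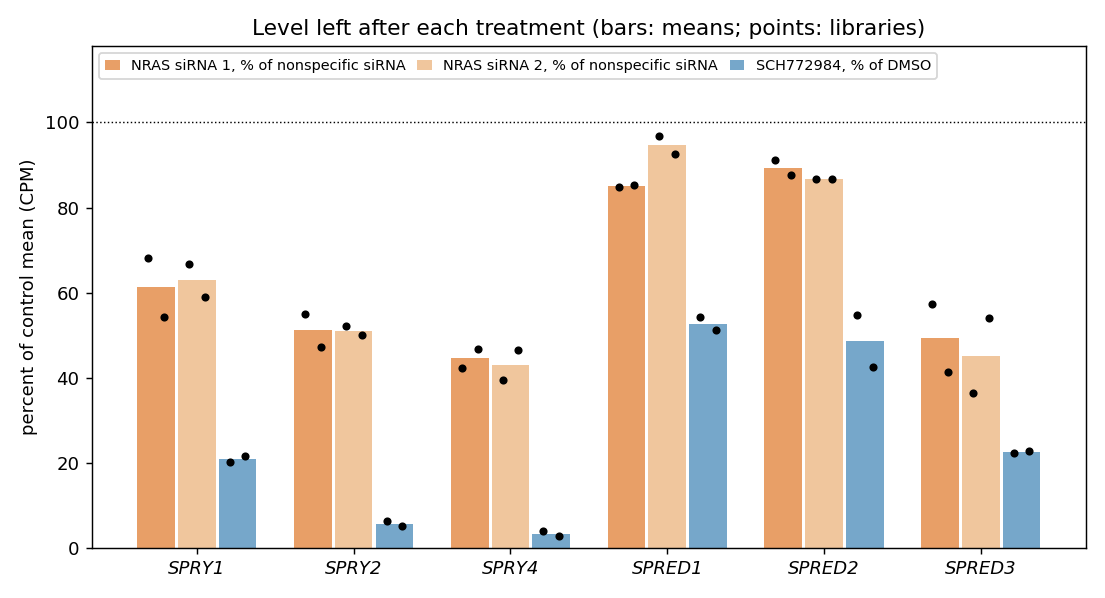
Level left after each treatment as a percentage of the mean of the matching control (nonspecific siRNA or DMSO); bars are group means, points are libraries and the dotted line is the control mean. SPRY4 keeps 3.3% of its DMSO level with SCH772984 and 44.5% and 43% of its control level with the NRAS siRNAs.

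The responses to NRAS siRNA and to SCH772984 were compared by subtracting the SCH772984 response from the mean siRNA response (the interaction), where a positive value means a lesser fall with the siRNAs. It was past the threshold for 5 of the 6 genes, where 2.73% of all tested genes were called in this direction. The difference was 3.73 log2 units for SPRY4 (95% interval 3.24 to 4.22, edgeR adjusted p = 7.81e-05) and 3.19 for SPRY2 (95% interval 2.61 to 3.78, edgeR adjusted p = 0.000201). It was 1.58 for SPRY1, 0.85 for SPRED2 and 0.77 for SPRED1. For SPRED3 it was 1.06 (95% interval 0.23 to 1.88, edgeR adjusted p = 0.118), which did not pass. The treatments differ in agent, in dose and in time of collection, 48 h against 24 h, and NRAS transcripts remained in the siRNA cells, so the parts of these factors cannot be told apart.

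**Figure D4:**
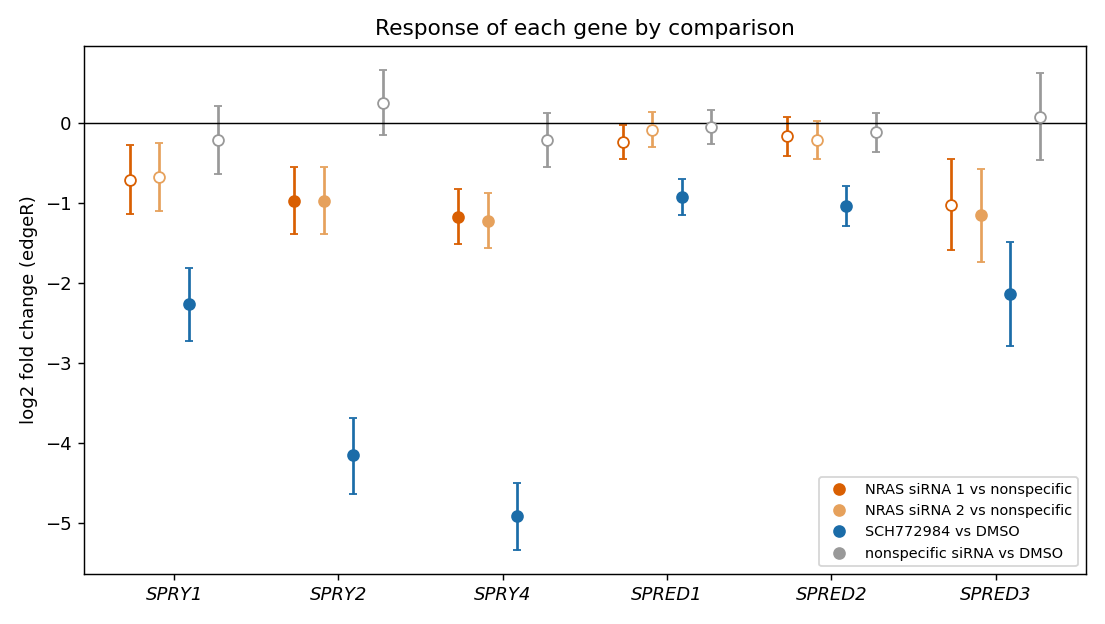
Log2 fold change of each detected gene with its 95% interval in 4 comparisons; filled points have an edgeR adjusted p under 0.05. The SCH772984 values run from -0.92 for SPRED1 to -4.92 for SPRY4, while the NRAS siRNA values stay above -1.3 throughout.

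SPRY3 needs a separate statement. It lies in the pseudoautosomal region that the X and Y chromosomes share, at chrX:155767812-155782459 (GRCh38). The count tables listed 21 genes annotated on both chromosomes, and 20 of these had 0 counts in every library, among them SLC25A6, CD99 and VAMP7, which most cell types transcribe. The remaining gene, PLCXD1, had 2 counts in all. Reads without a unique alignment stood outside the gene counts, in a line of their own, and made up 27 to 28.9% of the reads per library. Whether reads of these genes are among them was not tested. The 0 of SPRY3 therefore cannot be read as absence of its transcript.

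The genes around the family were described by lists of pathway members. The first list held binding partners of Sprouty and SPRED proteins. Of 21 tested partners 1 was higher and 2 were lower over both siRNAs, with a median of 0.04, while 7.95% of all tested genes were called in either direction. With SCH772984 4 were higher and 3 lower, with a median of -0.07, while 28% of all tested genes were called in either direction. NF1, the partner through which SPRED proteins act on RAS, measured 0.06 over both siRNAs and -0.15 with SCH772984 (edgeR adjusted p = 0.778 and 0.41). GRB2 measured 0.04 and -0.09, neither past the threshold.

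The called partners included the following. SH3KBP1, the CBL-binding adaptor CIN85, which also binds SPRY2, stood at 156 and 171 CPM with DMSO and at 52.6 and 56.2 CPM with SCH772984, a log2 fold change of -1.59 (SE 0.11, edgeR adjusted p = 1.16e-05). It was also lower over both siRNAs, at -0.52 (SE 0.09, edgeR adjusted p = 0.0119). GAB1, a docking protein of receptor signalling, was higher in both settings, from 25.2 and 21.3 CPM with DMSO to 40.9 and 45.1 CPM with SCH772984 (log2 fold change 0.89, SE 0.14, edgeR adjusted p = 0.00125) and by 0.53 over both siRNAs (edgeR adjusted p = 0.0285). With SCH772984 the ubiquitin ligase gene NEDD4 rose by 0.86, and the kinase gene TESK1, whose product binds SPRY4, rose by 0.47, just inside the threshold (edgeR adjusted p = 0.0446). CBL, the ligase that binds phosphorylated SPRY2, was lower with SCH772984 at -0.34 (SE 0.08, edgeR adjusted p = 0.0115). The siRNAs differed for CBL, with a fall for siRNA 1 at -0.5 (edgeR adjusted p = 0.0138) and a value of 0.09 for siRNA 2 (edgeR adjusted p = 0.505), a difference of -0.59 (edgeR adjusted p = 0.0133). The small GTPase gene RHOA was lower over both siRNAs at -0.38 (SE 0.08), with 779 ± 51 CPM in the control, 737 ± 4.22 CPM with siRNA 1 and 488 ± 22.9 CPM with siRNA 2 (SD, n = 2 each). It passed for siRNA 2 at -0.67 (edgeR adjusted p = 0.00788) and not for siRNA 1 at -0.08 (edgeR adjusted p = 0.73), and siRNA 1 minus siRNA 2 was 0.6 (edgeR adjusted p = 0.041). CBL and RHOA were the 2 of 21 partners called between the siRNAs, where edgeR called 0.427% of all tested genes. CAV1, the caveolin gene, measured -0.29 over both siRNAs and -0.49 with SCH772984 and passed in neither.

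The other feedback regulators and output genes of ERK were a list in which most calls were falls. Over both siRNAs 0 of 18 were higher and 9 lower, where 4.99% of all tested genes were lower, with a median log2 fold change of -0.72. With SCH772984 1 was higher and 13 were lower, where 14.8% of all tested genes were lower, with a median of -1.75. DUSP6, the ERK phosphatase gene, stood at 272 and 206 CPM with the nonspecific siRNA, at 96.7 and 99.8 CPM with siRNA 1 and at 101 and 108 CPM with siRNA 2. It went from 292 and 265 CPM with DMSO to 13.5 and 9.28 CPM with SCH772984. As for SPRY4, both NRAS siRNA groups lay below their control and the SCH772984 libraries were lowest. DUSP4, a nuclear ERK phosphatase gene, was at -1.27 over both siRNAs and -2.42 with SCH772984. IL17RD, the gene of the feedback inhibitor SEF, was at -0.42 over both siRNAs (edgeR adjusted p = 0.297) and at -2.92 with SCH772984 (edgeR adjusted p = 0.000171). DUSP9 was the 1 gene of the list that rose with SCH772984, by 0.68.

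**Figure D5:**
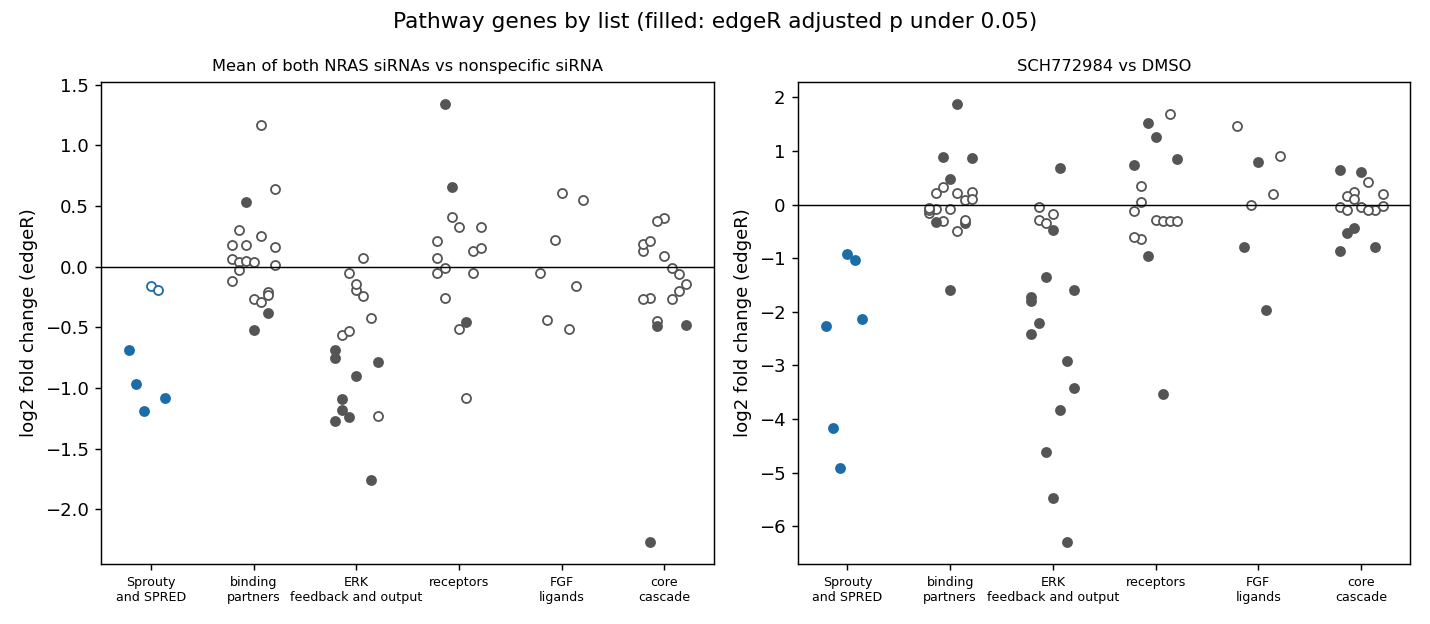
Log2 fold change of every tested gene of the family and of 5 pathway lists, over both NRAS siRNAs (left) and with SCH772984 (right), on axes of different range; filled points have an edgeR adjusted p under 0.05. The family and the list of ERK feedback and output genes lie mostly below 0 in both panels, and the other lists straddle it. The list labelled FGF ligands holds FGF family genes and FGF-binding protein genes.

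For receptors, FGF family genes and the kinase cascade the counts are to be read against shares over all tested genes. These were 7.95% called in either direction over both siRNAs and 28% with SCH772984. Of 16 tested growth factor receptor genes, all but FGFRL1 encoding receptor tyrosine kinases, 2 were higher and 1 lower over both siRNAs (median 0.1), and 4 were higher and 2 lower with SCH772984 (median -0.2). FGFR3 rose by 0.66 over both siRNAs and by 1.52 with SCH772984, and PDGFRB rose by 1.26 with SCH772984. MET rose by 1.34 over both siRNAs but was also lower in the nonspecific siRNA group than in DMSO, at -1.09 (edgeR adjusted p = 0.0485). FGFRL1 fell by 0.46 over both siRNAs, and PDGFRA fell by 0.96 with SCH772984. FGFR1, the main receptor for many fibroblast growth factors, measured -0.05 and -0.12 and did not pass. Of 7 tested genes of the FGF family and of FGF-binding proteins 0 were called over both siRNAs. With SCH772984 FGF11 rose by 0.8 and FGF2 fell by 0.79, among 1 higher and 2 lower. Of 17 genes of the RAS to ERK cascade 0 were higher and 3 lower over both siRNAs, NRAS itself, MAP2K2 at -0.49 and RPS6KA2 at -0.48. With SCH772984 2 were higher, KSR1 at 0.65 and MRAS at 0.61, and 4 lower, among them RPS6KA3 at -0.87 and RPS6KA1 at -0.8.

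Finally, the genes whose pattern over the 10 libraries was most like that of each member were listed, by the root mean square difference (RMS) between log2 CPM values centred on each gene's mean. For SPRY4 the nearest gene was DUSP6, with an RMS of 0.154, followed by PCSK1 at 0.287, MYEOV at 0.367 and ETV4 at 0.397, where the median over all tested genes was 1.788. For SPRY2 the nearest were DNER at 0.198, ETV5 at 0.294, DUSP6 at 0.297 and PCSK1 at 0.323, against a median of 1.612. In that order, their log2 fold changes over both siRNAs were -0.75, -0.24, -1.24 and -1.17, beside -0.97 for SPRY2. A low RMS therefore need not mean a like response to the siRNAs. DUSP6 and PCSK1 were thus on the lists of both SPRY4 and SPRY2. For SPRY1 the nearest were PKIB at 0.178, ZCCHC12 at 0.193, FRZB at 0.202 and TFB1M at 0.216, against a median of 0.83. For SPRED1 they were NRXN3 at 0.078, PAK1 at 0.08, AFF1 at 0.084 and PCDH7 at 0.085, against a median of 0.4. For SPRED2 they were SEMA4D at 0.093, PAK1 at 0.105, HOXB4 at 0.108 and SMAP2 at 0.114, against a median of 0.431. PAK1 appeared for both SPRED genes. Each median lay close to the member's own RMS about its mean. That was 1.776 for SPRY4, 1.6 for SPRY2, 0.803 for SPRY1, 0.343 for SPRED1 and 0.376 for SPRED2. A gene without change would thus score close to the median, and RMS values cannot be compared between members. These lists are descriptions over libraries that share groups, and SPRED3, under 5 CPM, was left out.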

How the data were processed

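Stranded mRNA libraries were made from total RNA, per the labels' protocols. The deposited values are whole-number read counts per gene, not normalised. Tools named in the submitters' processing notes are HTSeq, TopHat2, SAMtools and bcl2fastq, with the builds GRCh37 and hg19. Versions, annotation and strand setting: not given in the sources used here. The 5 category lines that name no gene (38.3 to 39.4% of reads) entered neither library sizes nor tests.

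Counts were tested with edgeR 4.0.16 (glmQLFit and glmQLFTest) in R 4.3.3, with TMM scaling, a low-count filter (filterByExpr by group, minimum count 10), all 10 libraries in 1 fit with 5 residual degrees of freedom, and Benjamini-Hochberg adjustment over 14761 genes at 0.05. Standard errors come from the fold change and its F statistic, and intervals are at 95%. Groups and replicate numbers came from sample titles. No replicate pair matched within sampling noise (chi-square 13.2 to 25.5 times its degrees of freedom), so every library counted as 1 replicate. The fitting script was tested on simulated counts. Alternatives were RLE and upper-quartile scaling, no filter on low counts, DESeq2 1.42.0, a replicate block, only the groups compared, and each library left out in turn.

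The 7 genes were chosen by symbol. The lists, the 7 genes and the tests were chosen with earlier results of these data known. Genes named from the 5 lists were NF1, CBL, GRB2, TESK1, CAV1, DUSP6, DUSP4, IL17RD, NRAS and FGFR1, plus up to 4 called genes per list and main comparison with at least 5 CPM in the higher group and the greatest change. The text names a part of these, 1 gene fixed by name is not reported here, and DUSP9 was added after its value was seen. Likeness used log2 CPM with a prior count of 2 and gave the 4 nearest genes. Lengths were merged exons of GENCODE v29 (GRCh38), which is not the annotation of the counts. Promoter sequences are RefSeq's (GRCh38.p14), and all 7 symbols matched.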

Additional observations from a re-analysis of the deposited data

Results flagged for a closer look

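The response to the NRAS siRNAs differed from the response to SCH772984 for 5 of the 6 tested genes, by the interaction term of the edgeR fit, with adjustment by the Benjamini-Hochberg method over all tested genes. The mean siRNA response minus the SCH772984 response was 3.73 log2 units for SPRY4 (SE 0.22, edgeR adjusted p = 7.81e-05) and 3.19 for SPRY2 (SE 0.26, edgeR adjusted p = 0.000201). It was 1.58 for SPRY1 (SE 0.26, edgeR adjusted p = 0.00903), 0.85 for SPRED2 (SE 0.15, edgeR adjusted p = 0.01) and 0.77 for SPRED1 (SE 0.13, edgeR adjusted p = 0.00979). A positive difference was called for 2.73% of all tested genes. Each of the 5 genes lay below both control libraries in all 4 NRAS siRNA libraries, as did 19.3% of all tested genes. Each also lay below both DMSO libraries in both SCH772984 libraries, as did 33.9% of all tested genes. For each of the 5 genes the fall was the greater with SCH772984. The calls of the 5 genes held in all 15 alternatives, with the SPRY1 adjusted p ranging from 6.84e-07 to 0.0492 and that of SPRED2 from 5.53e-05 to 0.0468. The treatments differ in time of collection, 48 h against 24 h, which cannot be told apart from the agents.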

How the results depend on the processing

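With SCH772984 all 6 genes, and in the interaction 5 of 6, were called under every alternative run; between siRNAs and between controls 0 of 6 were. The interaction involves every group, so a fit on only the groups compared gave no separate value. With the replicate number as a block, 4 genes passed for siRNA 1 in place of 2. Across groups the differences between replicates 1 and 2 had correlations of 0.07 to 0.45, and the labels do not pair the numbers. Without a filter on low counts siRNA 1 also gave 4, and with only the groups compared it gave 1 and the mean of both siRNAs 2 in place of 4. Leaving out 1 library gave 0 to 3 genes for siRNA 1, 0 to 3 for siRNA 2 (3 in the full fit) and 1 to 4 for the mean. The lowest counts came without the first library of siRNA 1, of siRNA 2 and of the nonspecific siRNA. SPRY4 missed the threshold for siRNA 1 without that group's first library (-1.1, edgeR adjusted p = 0.0877) and for siRNA 2 likewise (-1.1, edgeR adjusted p = 0.06). The cause was not tested.

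Of the log2 fold changes, 13 values changed sign, all of differences that were not called. For siRNA 1 minus siRNA 2, SPRY2 took 0 with upper-quartile scaling and -0.01 with the block, and ranged from -0.11 to 0.11 (with -0.03 among them) when 1 library was left out. On leaving out 1 library in the same comparison SPRED3 ranged from -0.13 to 0.44, SPRY1 from -0.21 to 0.12 and SPRY4 from -0.07 to 0.17. For the nonspecific siRNA minus DMSO the ranges were -0.06 to 0.53 for SPRY2, -0.55 to 0.07 for SPRY1 and -0.15 to 0.07 for SPRED1.

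Over all tested genes, the count of 305 for siRNA 1 became 785 without the filter, 763 with DESeq2, 1280 with the block, 45 with only the groups compared and 28 to 374 without 1 library. For siRNA 2, 949 became 1690, 1651, 2815, 225 and 53 to 1144 in the same order. For the mean, 1174 became 1765 without the filter, 2846 with the block, 425 with only the groups compared and 131 to 1491 without 1 library. For SCH772984, 4128 became 1875 to 4392 without 1 library. For the interaction, 1078 became 2379 with the block and 343 to 915 without 1 library. The 63 genes between siRNAs became 144 with DESeq2, 120 with the block, 28 with only the groups compared and 6 to 54 without 1 library. The 56 between controls became 283 without the filter, 370 with DESeq2, 446 with the block, 12 with only the groups compared and 6 to 31 without 1 library. The shares of called genes printed beside the family's counts move accordingly. Depth limits SPRED3, with 15 to 70 counts per library.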
